A study of Mus musculus with 6 samples.

Results

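The mitochondrial ribosomal proteins were followed through RNA-seq of dendritic cells sorted from a mouse model of ovarian cancer. The members were the rows of the deposited count table whose symbol begins with Mrpl or Mrps followed by a number, which took 74 of 23225 genes, 46 of the large subunit (Mrpl) and 28 of the small subunit (Mrps). Mrps2, Mrpl51 and Mrpl56 were not analysed here. All mice were of the C57BL/6 background and carried tumours based on ID8, a line derived from mouse ovarian surface epithelium that is grown in the peritoneum, and the cells were taken from tumour and ascites at day 23. The 3 WT libraries came from wild-type mice. The 3 XBP1-KO libraries came from conditional knockouts that lack XBP1, a transcription factor of the ER stress response, in cells positive for CD11c. Every cell type with CD11c can therefore carry the deletion, and which cells carried it was not measured here. RNA was isolated independently for each library. The labels do not say that the libraries came from separate animals, and p-values then measure only the spread between these samples, which may be technical.

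The mitochondrial ribosome translates the few proteins that mitochondrial DNA encodes, all of them subunits of the respiratory chain and of ATP synthase. Its rRNAs are transcribed in the organelle, whereas all of its proteins are encoded in the nucleus, made in the cytosol and imported. Some of these proteins descend from the bacterial ribosome and others were added in the course of mitochondrial evolution. In dendritic cells, mitochondrial respiration is part of the metabolic state that shifts on activation.

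Promoters of many mitoribosomal genes hold motifs of NRF1, of ETS factors such as GABP (also called NRF-2), and of YY1, which are known regulators of nuclear genes for mitochondria. RefSeq promoters of the mouse assembly GRCm38.p6, from 250 bases before to 50 bases after the start of transcription, matched 65 of the 74 members by symbol. Both strands were searched for the cores GCATGCGC (NRF1), CCGGAAG (ETS) and AAGATGGCG (YY1), and a gene was counted once if any of its promoters held the letters. The ETS core was found in 23 of the 65 members (35.4%), against 9.93% of all genes with a promoter and 17.6% of those that were also tested for expression. The NRF1 core was found in 8 members (12.3%), against 3.05% and 5.5%. The YY1 core was also found in 8 members (12.3%), against 1.64% and 3.04%. In all 33 members held at least 1 of the 3 cores and 4 held those of NRF1 and of ETS. These matches are of letters only, and no binding was measured here.

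The 250 bases before the start are shown 5′ to 3′ on the strand of the gene for the 2 members that mark the group, Mrpl12 and Mrps18b, for the 2 with the smallest p between the genotypes, Mrpl52 and Mrpl39, and for Mrpl22, which holds an NRF1 and an ETS core within these bases. Capitals mark these cores on either strand.
Mrpl12: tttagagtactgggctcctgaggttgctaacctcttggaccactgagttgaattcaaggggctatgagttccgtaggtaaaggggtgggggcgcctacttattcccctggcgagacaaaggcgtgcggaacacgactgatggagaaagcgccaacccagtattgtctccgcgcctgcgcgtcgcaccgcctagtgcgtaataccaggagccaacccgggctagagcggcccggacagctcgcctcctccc
Mrps18b: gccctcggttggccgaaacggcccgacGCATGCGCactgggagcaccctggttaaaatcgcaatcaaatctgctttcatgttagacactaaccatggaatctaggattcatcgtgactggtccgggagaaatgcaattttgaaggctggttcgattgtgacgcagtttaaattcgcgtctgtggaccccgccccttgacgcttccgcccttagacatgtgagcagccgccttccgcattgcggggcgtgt
Mrpl52: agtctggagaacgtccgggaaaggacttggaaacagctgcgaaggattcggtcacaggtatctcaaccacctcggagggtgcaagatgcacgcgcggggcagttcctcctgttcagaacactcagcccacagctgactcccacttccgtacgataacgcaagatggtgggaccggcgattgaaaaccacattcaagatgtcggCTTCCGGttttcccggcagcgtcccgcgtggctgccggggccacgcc
Mrpl39: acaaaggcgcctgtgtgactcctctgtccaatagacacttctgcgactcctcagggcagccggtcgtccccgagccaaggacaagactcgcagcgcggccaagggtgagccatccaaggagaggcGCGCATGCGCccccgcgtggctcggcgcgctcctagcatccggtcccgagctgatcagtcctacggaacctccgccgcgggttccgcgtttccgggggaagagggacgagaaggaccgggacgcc
Mrpl22: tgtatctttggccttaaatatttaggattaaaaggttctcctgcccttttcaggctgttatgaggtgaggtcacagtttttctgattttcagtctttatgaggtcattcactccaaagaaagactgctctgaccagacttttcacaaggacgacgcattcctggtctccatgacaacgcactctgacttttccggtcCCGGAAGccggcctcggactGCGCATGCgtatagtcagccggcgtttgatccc
The windows lie at chr11:120484387-120484636 on the plus strand (Mrpl12), chr17:35916441-35916690 on the minus strand (Mrps18b), chr14:54426659-54426908 on the plus strand (Mrpl52), chr16:84735245-84735494 on the minus strand (Mrpl39) and chr11:58171414-58171663 on the plus strand (Mrpl22). The window of Mrpl12 held none of the 3 cores. That of Mrps18b held an NRF1 core that begins 223 bases before the start, and its promoter also counted for the ETS core, whose match is not wholly within the bases shown. Mrpl52 had an ETS core on the other strand 47 bases before the start. In Mrpl39 the NRF1 core was found on both strands in overlapping letters, from 125 and 123 bases before the start. Mrpl22 had an ETS core 53 and an NRF1 core 33 bases before the start. The median log2 fold change between the genotypes, described next, was 0.21 in the 8 members with the NRF1 core and 0.17 in the other members with a promoter, 0.20 and 0.15 for the ETS core, and 0.17 and 0.17 for the YY1 core, and these differences were not tested.

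Libraries held between 26946349 and 32709100 counts. Xbp1, the targeted gene, had 67.2, 48.7 and 76.8 CPM (read counts relative to the TMM-scaled library size) in the WT libraries, called a, b and c in this order, and 32.5, 30.9 and 40.4 CPM in the XBP1-KO libraries, also called a, b and c. Its log2 fold change of -0.89 (SE 0.18) had an edgeR adjusted p of 0.0545, and the groups did not overlap. In the two-sided quasi-likelihood test of edgeR, a gene was called changed at an adjusted p under 0.05, over all 15958 genes tested, and all 74 members were tested. The summed level of 14 dendritic cell markers, led by Cd74 and H2-Aa of antigen presentation, lay between 70466 and 122516 CPM in the 6 libraries. That of 15 markers of macrophages and monocytes lay between 17150 and 28692 CPM. A set of 3 erythroid genes set WT b and XBP1-KO b apart from the rest, led by the haemoglobin genes Hba-a2 and Hbb-b1, and summed to 136 and 145 CPM in these 2 libraries and between 12.6 and 19 CPM in the other 4.

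Every member was detected, and levels spread widely. Levels between genes were compared as CPM per kilobase of transcript. Large-subunit genes had between 0.301 and 245 CPM per kb with a median of 36.6, and 34 of 46 lay between 10 and 100. Small-subunit genes had between 0.535 and 256 CPM per kb with a median of 21, and 16 of 28 lay between 10 and 100. The highest member was Mrps21, the counterpart of bacterial S21, with 256 ± 36.8 CPM per kb (SD, n = 6), followed by Mrpl42 with 245 ± 23.6, and the gap between these neighbours was smaller than either SD. Next came Mrps33 with 187 ± 24 and Mrpl20, the counterpart of bacterial L20, with 181 CPM per kb. Mrps18c had 151 and Mrpl36, the counterpart of bacterial L36, had 149 CPM per kb, again a gap smaller than the spread between libraries.

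**Figure D1:**
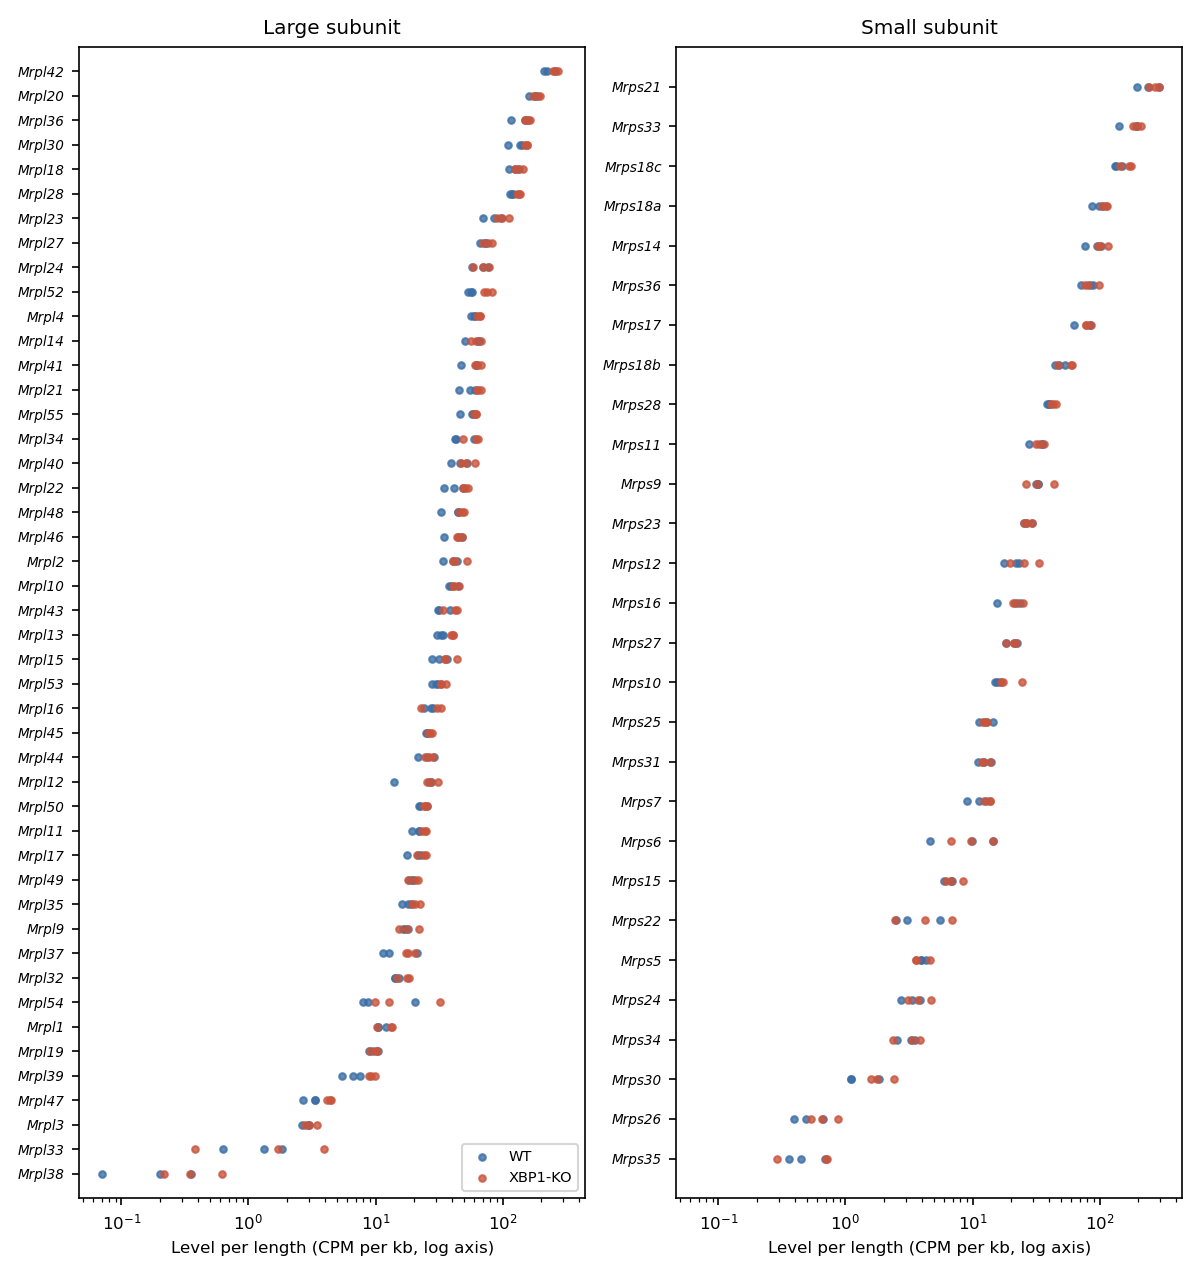
Level of each member per kilobase of transcript (x axis, CPM per kb, log scale), with 1 point per library, WT in blue and XBP1-KO in red, and genes ordered by their mean (y axis). Most large-subunit genes form a band around their median of 36.6 CPM per kb, and Mrpl38, Mrps35 and Mrps26 are the lowest, at 0.301, 0.535 and 0.604 CPM per kb.

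At the low end, Mrpl38 had counts of 8, 14 and 3 in WT and 24, 9 and 16 in XBP1-KO, or 0.301 CPM per kb. Mrpl33, the counterpart of bacterial L33, had counts of 18, 25 and 9 in WT and 5, 56 and 27 in XBP1-KO. Neither is in the deposited CPM table, which holds the other 72 members. Mrps35 had counts of 81, 42 and 56 in WT and 80, 36 and 99 in XBP1-KO, or 0.535 CPM per kb, and Mrps26 counts of 81, 48 and 63 and of 77, 68 and 123, or 0.604 CPM per kb. In all of these genes the values of the genotypes overlapped. Mrpl3, of the rRNA core of the large subunit, had 2.97 CPM per kb and was the lowest large-subunit member above Mrpl33. How the whole-number counts treated reads shared with pseudogene copies is not given in the sources used here.

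No mitoribosomal protein gene was called changed between XBP1-KO and WT, while 0.445% of all genes were called. As a group the members lay slightly higher in XBP1-KO. With the scaling used here 71 of 74 had a log2 fold change above 0, with a median of 0.17, where 56.1% of all genes did, with a median of 0.06. With upper quartile scaling or library size alone all 74 lay higher, with medians of 0.22 and 0.25 against 0.11 and 0.14 over all genes. Of the members, 69 lay within 0.5 of 0 on the log2 scale. In bulk samples like these, fewer cells of a type and less RNA per cell cannot be told apart. DESeq2 called none of the 72 members to which it gave an adjusted p, where it called 3.6% of all genes, and limma-voom called none of 74, where it called 0.295%. The smallest adjusted p of a member, that of Mrpl52 in each tool, was 0.186 with edgeR, 0.106 with DESeq2 and 0.198 with limma-voom. At an unadjusted p under 0.05 there were 4 members with edgeR (5.41% of the members), all higher in XBP1-KO. Of all genes 4.59% were higher at this edgeR p, and 12.9% passed it in either direction. There were 3 members at this p with DESeq2 and 4 with limma-voom, for which the shares over all genes are not given here. In 17 members (23%) every XBP1-KO value lay above every WT value, against 8.8% of all genes. In no member was the order the opposite, while it was in 1662 of the 15958 genes tested.

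Summed over the 46 large-subunit genes, the level was 2411, 2095 and 2430 CPM in WT and 2749, 2545 and 2524 CPM in XBP1-KO, so that the genotypes did not overlap. The ratio of the means was 1.13. Summed over the 28 small-subunit genes, it was 1270, 1028 and 1226 CPM in WT and 1407, 1231 and 1240 CPM in XBP1-KO, with a ratio of 1.1. Here WT a lay above XBP1-KO b and c, so the genotypes overlapped with TMM scaling. As a plain share of all counts, without TMM scaling, the 74 members took 0.352%, 0.327% and 0.335% in WT and 0.41%, 0.395% and 0.396% in XBP1-KO, a ratio of 1.18. The plain share of the small subunit was 0.121%, 0.108% and 0.112% in WT and 0.139%, 0.129% and 0.13% in XBP1-KO. On this scale the genotypes did not overlap in the small subunit.

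**Figure D2:**
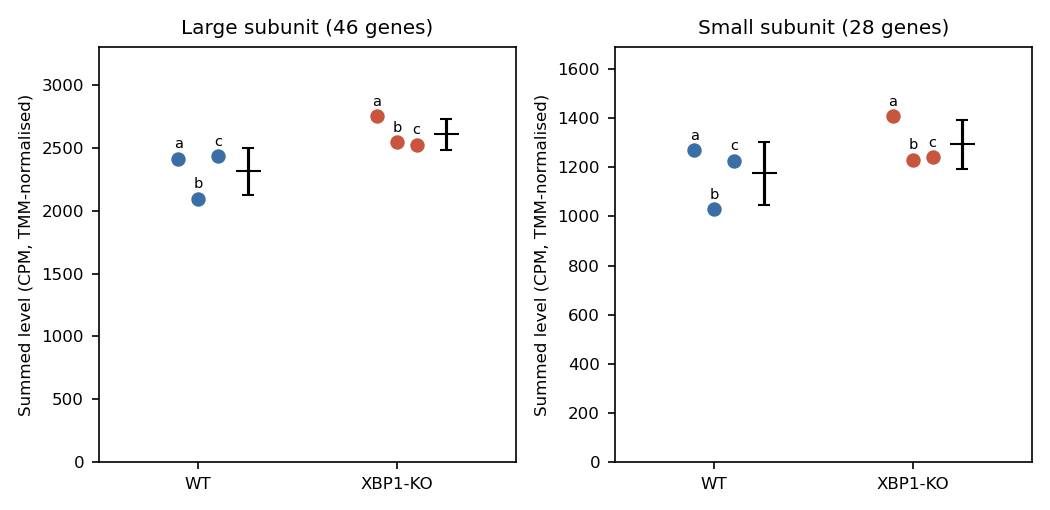
Summed level of the large-subunit genes (left) and the small-subunit genes (right) in each library (y axis, CPM), with the mean and SD of 3 libraries beside the points. WT b is the lowest and XBP1-KO a the highest library in both panels, and the large-subunit sums do not overlap between the genotypes.

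All 46 large-subunit genes lay higher in XBP1-KO, with a median log2 fold change of 0.18 and quartiles of 0.11 and 0.26, and in 15 (32.6%, against 8.8% of all genes) the genotypes did not overlap. None was called, against 0.445% of all genes. Medians were close to this in each region of the subunit. The 4 genes of the stalk and its base, where translation factors bind, had a median of 0.19. The 8 genes on the side where the new protein leaves and the inner membrane lies had a median of 0.22. The 22 other genes with bacterial counterparts had a median of 0.17, and the 12 other genes without bacterial counterparts had one of 0.22. Every gene in each of these classes lay above 0.

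Of the stalk, Mrpl12 is the counterpart of bacterial L7/L12, which recruits elongation factors. It had 18.5, 36.1 and 34.8 CPM in WT and 40.6, 33.2 and 36 CPM in XBP1-KO. WT a was low by itself and the other 5 libraries lay close together, so the genotypes overlapped. The log2 fold change was 0.30 (95% interval -0.198 to 0.794), with an edgeR adjusted p of 0.615.

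On the exit side, Mrpl39 had 17.2, 12.5 and 15.2 CPM in WT and 22.7, 20.2 and 21.1 CPM in XBP1-KO. The genotypes did not overlap, and a log2 fold change of 0.51 (SE 0.179) went with an edgeR adjusted p of 0.236. Mrpl47, a counterpart of bacterial L29, had 11.2, 9.03 and 11.2 CPM in WT and 14.7, 15 and 13.9 CPM in XBP1-KO. Again no WT library reached an XBP1-KO library, with a log2 fold change of 0.48 (SE 0.188) and an edgeR adjusted p of 0.299. Mrpl22, whose bacterial counterpart lines the exit tunnel, had 30.1, 24.9 and 34.9 CPM in WT and 35, 36.8 and 38.2 CPM in XBP1-KO. Its WT c and XBP1-KO a values all but touched, and the log2 fold change was 0.29 (SE 0.159).

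Of the genes without bacterial counterparts, Mrpl52 had the smallest p of all members. It had 24.7, 25.2 and 23.6 CPM in WT and 33.4, 36.4 and 31.4 CPM in XBP1-KO. The WT libraries lay close together, at 24.5 ± 0.813 CPM (SD, n = 3), and the XBP1-KO libraries all lay above them, at 33.7 ± 2.53 CPM, with a log2 fold change of 0.46 (SE 0.147), an unadjusted p of 0.00761 and an edgeR adjusted p of 0.186. Mrpl42 had 172, 139 and 148 CPM in WT and 179, 171 and 164 CPM in XBP1-KO, with an overlap between the genotypes. Mrpl54 is named here because of its spread, seen in the data. It had 5.23, 12.5 and 4.84 CPM in WT and 19.5, 5.94 and 7.74 CPM in XBP1-KO. Its level differed several-fold between libraries of one genotype, and its log2 fold change of 0.56 had a 95% interval of -0.753 to 1.86.

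Of the rRNA core, Mrpl13, the counterpart of bacterial L13, had 40.4, 37.3 and 41.8 CPM in WT and 49.9, 49.7 and 47.6 CPM in XBP1-KO. The libraries of each genotype lay close together and did not overlap, with a log2 fold change of 0.30 (SE 0.133) and an edgeR adjusted p of 0.36. Mrpl21 had 58.8, 44 and 53.2 CPM in WT and 65, 61.8 and 61.4 CPM in XBP1-KO, Mrpl35 had 70.8, 59.6 and 67.1 against 76.4, 83.2 and 72.7 CPM, and Mrpl30 had 94.8, 73.5 and 91.6 against 103, 102 and 99.8 CPM. In these 3 counterparts of bacterial L21, L35 and L30 the genotypes did not overlap, WT b was the lowest library, and the edgeR adjusted p lay between 0.456 and 0.5. Mrpl20 had 90.6, 79.1 and 88 CPM in WT and 94.6, 97.3 and 85.9 CPM in XBP1-KO, with an overlap. Mrpl36 had 114, 82.9 and 108 CPM in WT and 117, 112 and 108 CPM in XBP1-KO, where only WT b stood apart. Mrpl3 had 9.18, 8.35 and 9.48 CPM in WT and 10.8, 8.7 and 9.35 CPM in XBP1-KO, and overlapped.

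Of the 28 small-subunit genes, 25 lay higher in XBP1-KO with the scaling used here and 28 with upper quartile scaling or library size alone. The median log2 fold change was 0.15, and 2 genes (7.14%, against 8.8% of all genes) lay higher without overlap between the genotypes. None was called (0.445% of all genes) or had an unadjusted edgeR p under 0.05 (12.9% of all genes). The smallest edgeR adjusted p was 0.489, that of Mrps18c. The 14 genes with bacterial counterparts, the S18 homologues apart, had a median of 0.14 with 13 above 0, and the 11 without had a median of 0.08 with 9 above 0. The difference between the subunits was not tested.

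Mammals have 3 homologues of bacterial S18, and all 3 lay higher. Mrps18b had 50.3, 41.7 and 45.1 CPM in WT and 57.4, 56.4 and 43.8 CPM in XBP1-KO. XBP1-KO c lay within the WT range, and the log2 fold change was 0.20 (95% interval -0.125 to 0.527) with an edgeR adjusted p of 0.607. Mrps18c had 95.3, 83.7 and 86.2 CPM in WT and 112, 108 and 91.7 CPM in XBP1-KO, and Mrps18a had 80.7, 65.2 and 74.9 CPM in WT and 84.1, 85.6 and 77.9 CPM in XBP1-KO. In both, 1 XBP1-KO library, c, lay below WT a. Structures of the mammalian ribosome place the Mrps18a protein and the Mrps30 protein in the large subunit, and the Mrps36 protein has been described as a subunit of a dehydrogenase complex. With the first 2 counted as large and the third left out, the medians were 0.18 and 0.15.

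Mrps10, the counterpart of bacterial S10, and Mrps28 were the 2 small-subunit genes without overlap. Mrps10 had 15.8, 16.6 and 17.5 CPM in WT and 26, 18.5 and 17.6 CPM in XBP1-KO, where XBP1-KO a stood far above the rest and XBP1-KO c lay next to WT c. Mrps28 had 31.3, 30.4 and 31.4 CPM in WT and 33.7, 35.5 and 32.3 CPM in XBP1-KO, a small and even difference. Mrps12, the counterpart of bacterial S12 at the decoding centre, had 18.7, 14.3 and 17.5 CPM in WT and 26.8, 15.8 and 20.4 CPM in XBP1-KO, and overlapped.

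Mrps7, the counterpart of bacterial S7, had 17.6, 22 and 24.8 CPM in WT and 26.8, 26.9 and 24 CPM in XBP1-KO, and Mrps30 had 6.07, 3.68 and 3.67 CPM in WT and 7.98, 5.3 and 5.86 CPM in XBP1-KO. In each the top WT library reached into the XBP1-KO range. Of the most abundant small-subunit genes, Mrps21 had 130, 87.3 and 108 CPM in WT and 130, 109 and 121 CPM in XBP1-KO. Mrps33 had 141, 101 and 138 CPM in WT and 150, 132 and 142 CPM in XBP1-KO. In both only WT b stood below the other 5 libraries.

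The 3 genes that did not lie higher were Mrps5, the counterpart of bacterial S5, Mrps25 and Mrps27, with log2 fold changes of -0.05, -0.04 and -0.01, which became 0.01, 0.01 and 0.05 with upper quartile scaling. Mrps5 had 19.3, 17.7 and 17.6 CPM in WT and 20.7, 16.2 and 16 CPM in XBP1-KO. Mrps25 had 77.1, 68.2 and 87.3 against 74, 72.6 and 79.4 CPM, and Mrps27 had 39.5, 33.9 and 41 against 39.1, 40.9 and 33.8 CPM. All 3 overlapped throughout.

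**Figure D3:**
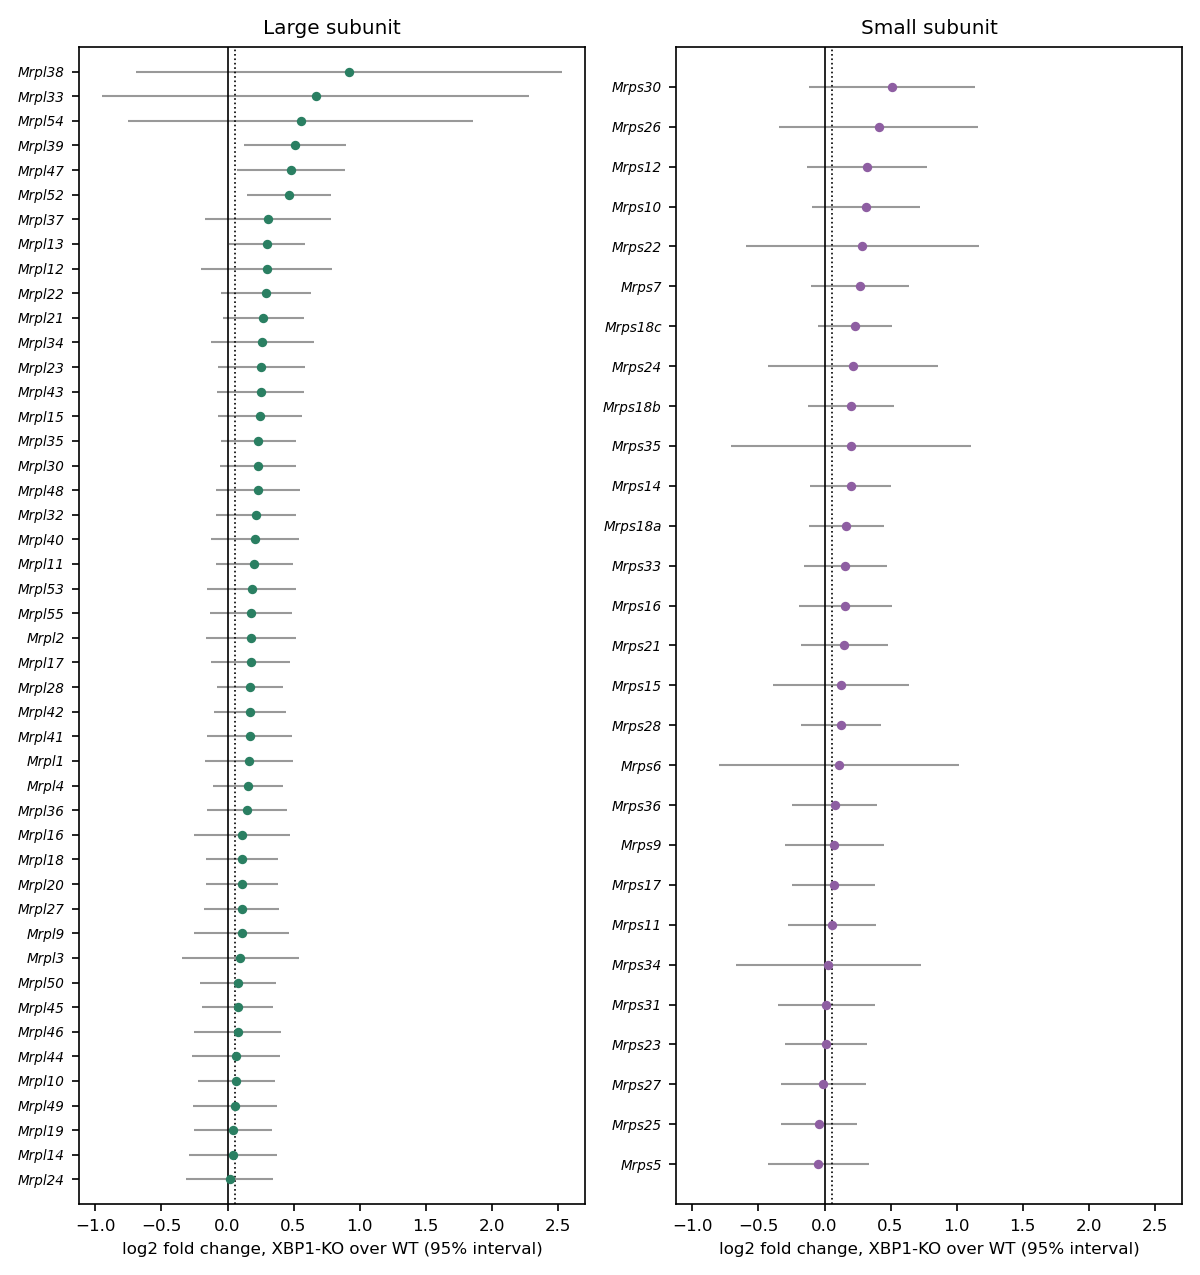
Log2 fold change of XBP1-KO over WT for each large-subunit (left) and small-subunit (right) gene (x axis), with its 95% interval, genes ordered by fold change (y axis). The solid line is 0 and the dotted line the median of all tested genes, 0.06. The intervals of 4 genes, Mrpl52, Mrpl39, Mrpl47 and Mrpl13, leave out 0.

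Many members shared their order of libraries within a genotype. WT b was the lowest WT library for 54 of 74 members (73%), against 34.5% of all tested genes. XBP1-KO a was the highest XBP1-KO library for 49 members (66.2%), against 33.3%. The mean of the members' levels, each first centred and scaled to an SD of 1 over the 6 libraries, was -0.11, -1.11 and -0.09 in WT and 0.95, 0.19 and 0.18 in XBP1-KO. Without WT b, 55 of 74 members lay higher in XBP1-KO, 39 of 46 large and 16 of 28 small, with a median log2 fold change of 0.08 against 0.03 over all genes. Without XBP1-KO a, 57 lay higher with a median of 0.11, against 0.05. Without WT b and XBP1-KO b, the libraries with erythroid genes, 57 lay higher with a median of 0.10, against 0.04. Without any of the other 4 libraries between 67 and 71 lay higher. The part of the erythroid genes in this was not tested.

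**Figure D4:**
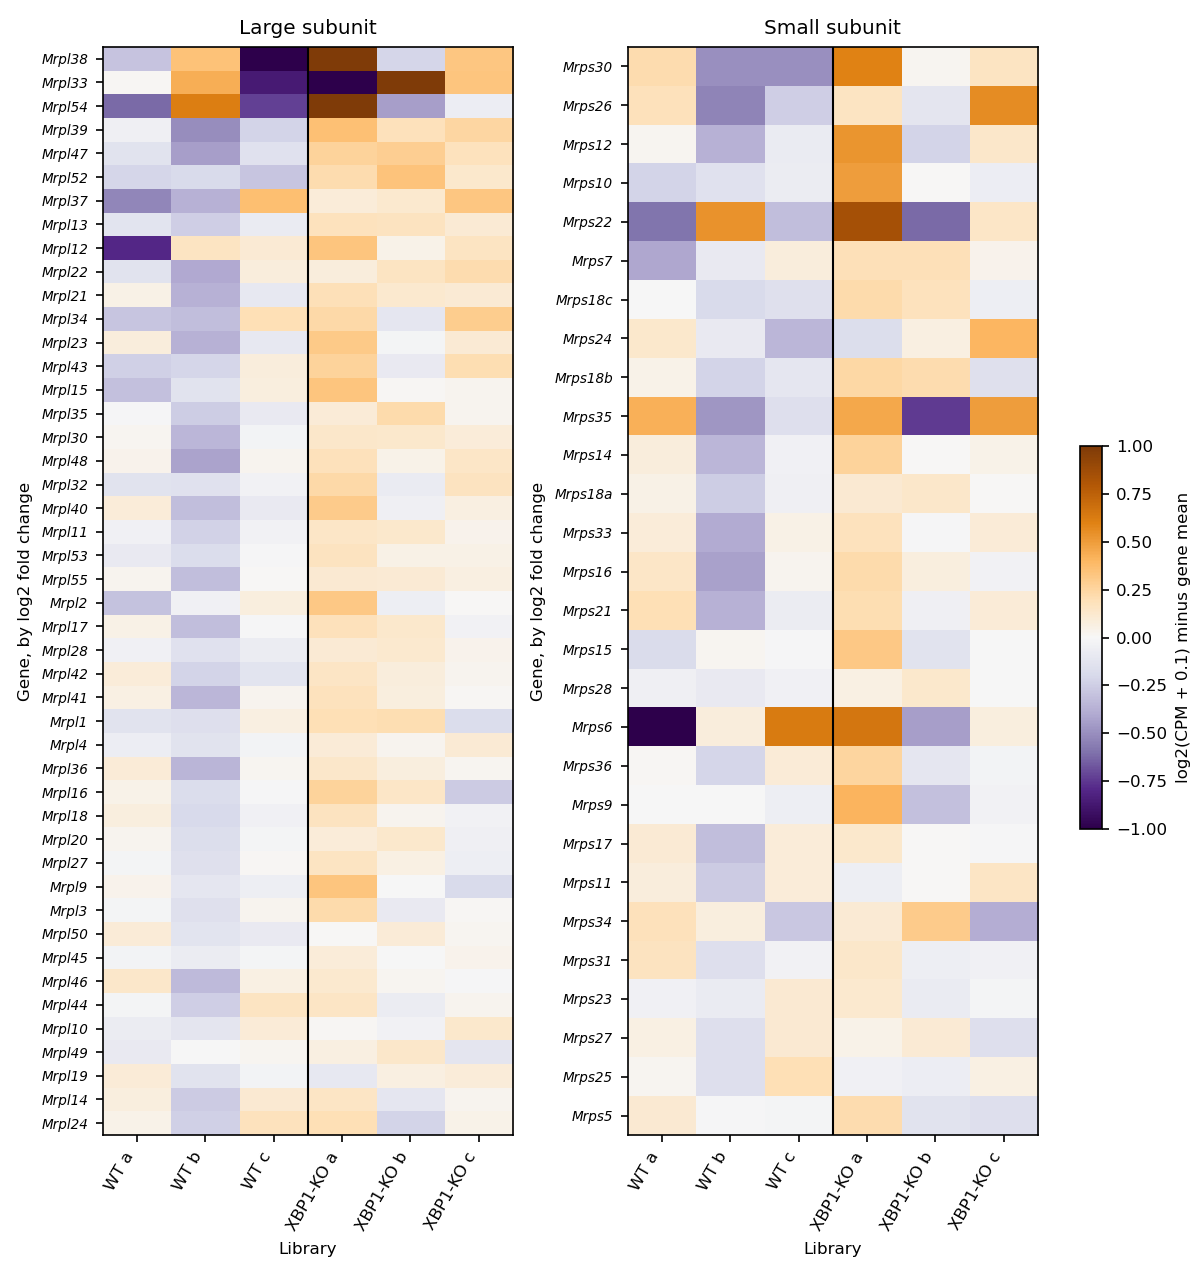
Level of each member in each library as log2(CPM + 0.1) minus the gene's mean over 6 libraries (colour, bounded at -1 and 1), libraries in columns and genes in rows by fold change. WT b is the lowest WT column for 54 members and XBP1-KO a the highest XBP1-KO column for 49, and the rows of Mrpl38, Mrpl33, Mrpl54, Mrps6, Mrps22 and Mrps35 differ most within a genotype.

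Mitoribosomal protein genes are short, and short genes in general lay higher in XBP1-KO. The members had a median transcript length of 1208 nt and all tested genes one of 2700 nt. Among 1033 other tested genes of up to 1000 nt, 79.2% lay higher, with a median log2 fold change of 0.18, and all 30 members of this length lay higher, with a median of 0.17. Among 3342 other genes of 1001 to 2000 nt the median was 0.10 with 64.7% higher, and 27 of 28 members lay higher with a median of 0.16. Among 9341 longer genes the median was -0.03 with 46.7% higher, and 14 of 16 members lay higher with a median of 0.17. The trend of fold change over length was then removed and the median of all genes added back, a step chosen after the data were seen. On this scale 58 of 74 members lay above 0, against 57.4% of all genes, and 45 lay above the median of all genes. The median of the members was 0.09, against 0.06 over all genes, with 0.11 for the large and 0.05 for the small subunit. The part of length in the members' difference was not tested.

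**Figure D5:**
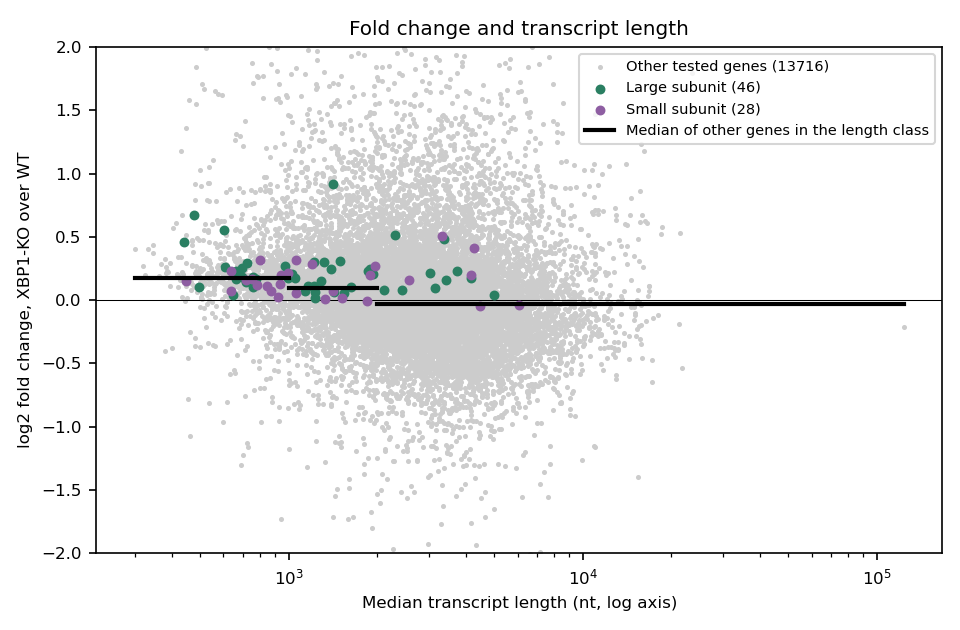
Log2 fold change of XBP1-KO over WT (y axis) against transcript length (x axis, nt, log scale) for other tested genes in grey, large-subunit genes in green and small-subunit genes in purple. Black bars mark the median of the other genes in 3 length classes, 0.18, 0.10 and -0.03 from short to long, and 50 genes beyond 2 in either direction are outside the axis.

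Some members share exons with other genes, and no source used here says whether reads were counted by strand. In the GENCODE M21 annotation 21 members overlap an exon of a gene on the opposite strand, 15 of them of a protein-coding gene, and 4 overlap one on the same strand, so the counts of these members are uncertain. Mrps6, a counterpart of bacterial S6, shares exons with Slc5a3, an inositol transporter gene on the same strand that fell in XBP1-KO by 1.15 on the log2 scale (edgeR adjusted p 0.0312). Mrps6 had 3.89, 8.32 and 12.2 CPM in WT and 12.4, 5.73 and 8.25 CPM in XBP1-KO, with a log2 fold change of 0.11. Slc5a3 had 21.8, 33.7 and 31.4 CPM in WT and 15.4, 11.6 and 12.2 CPM in XBP1-KO, so the pair did not follow the same order of libraries. Mrpl47, among the members with the smallest p, overlaps Ndufb5, with a log2 fold change of 0.14, and Actl6a, with -0.10. Mrpl13 overlaps Mtbp, with -0.40, and Mrps7 overlaps Gga3, with -0.56, and Mif4gd, with 0.07. None of these partners on the opposite strand was called.

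The other genes of mitochondrial translation also held no call, where 0.445% of all genes were called and 56.1% lay higher in XBP1-KO. Of 8 mitoribosomal proteins whose symbols do not follow the Mrp pattern, 7 lay higher, with a median log2 fold change of 0.19. Ict1 had the smallest p of these genes. It encodes a peptidyl-tRNA hydrolase of the large subunit that rescues stalled ribosomes. It had 34.9, 39.4 and 45.4 CPM in WT and 54.6, 48.2 and 53.4 CPM in XBP1-KO, with a log2 fold change of 0.38 and an edgeR adjusted p of 0.278. The genotypes did not overlap in Ict1. The exception in direction was Ptcd3, a small-subunit protein, with 60.6, 67.2 and 68.1 CPM in WT and 56.4, 60.3 and 53.3 CPM in XBP1-KO and a log2 fold change of -0.20.

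Of 25 genes that assemble the mitoribosome or modify its rRNA, 15 lay higher, with a median of 0.05, close to that of all genes. Dhx30, an RNA helicase of assembly, had 50.3, 51.7 and 41.6 CPM in WT and 31.7, 38.4 and 37 CPM in XBP1-KO, with an edgeR adjusted p of 0.24. The highest XBP1-KO value lay under the lowest WT value. Of 12 translation factors 9 lay higher, with a median of 0.08. Guf1, a GTPase that acts on elongating mitochondrial ribosomes, had 10.6, 7.26 and 7.55 CPM in WT and 10.9, 10.8 and 11.6 CPM in XBP1-KO, with an edgeR adjusted p of 0.473. Of 18 genes for charging mitochondrial tRNAs 11 lay higher, with a median of 0.09. Gatc, a subunit of the amidotransferase that makes glutaminyl-tRNA in mitochondria, had 11.4, 15.3 and 15.6 CPM in WT and 22.4, 18 and 16.4 CPM in XBP1-KO, with an edgeR adjusted p of 0.383.

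Upstream of translation the balance lay near that of all genes, of which 56.1% lay higher, or below it. Of 17 genes of mitochondrial transcription, RNA processing and genome upkeep 7 lay higher, with a median of -0.02. Ptcd1, which takes part in processing mitochondrial RNA, had 10.9, 16.9 and 14.8 CPM in WT and 10.1, 10.1 and 12.3 CPM in XBP1-KO, with an edgeR adjusted p of 0.465. Of 11 regulators of mitochondrial biogenesis 4 lay higher, with a median of -0.07. Gabpa, the DNA-binding subunit of GABP, an ETS factor, had 42, 33.6 and 38.9 CPM in WT and 25.9, 26.3 and 24.3 CPM in XBP1-KO. No XBP1-KO library reached a WT library, and a log2 fold change of -0.58 (SE 0.15) went with an edgeR adjusted p of 0.106, which did not pass the threshold. Nrf1, the factor of the NRF1 core, had 35.6, 42.4 and 33.4 CPM in WT and 27.9, 35.9 and 31.9 CPM in XBP1-KO, with an overlap. Of 19 genes of cell division 8 lay higher, with a median of -0.03, and Mcm3, a subunit of the replicative helicase, had 86.6, 113 and 71.8 CPM in WT and 51.7, 62.6 and 57.3 CPM in XBP1-KO, with an edgeR adjusted p of 0.102.

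Cytosolic ribosomal proteins and the respiratory chain, which holds the products of mitochondrial translation, also leaned higher without a call. Of 78 cytosolic ribosomal protein genes, taken by symbol, 77 lay higher, with a median log2 fold change of 0.22, 33 without overlap, where 8.8% of all genes lay higher without overlap, and none called, where 0.445% of all genes were. Rpl22l1, a paralogue of Rpl22, had the smallest p, with 91, 70.1 and 74.5 CPM in WT and 117, 97.8 and 110 CPM in XBP1-KO (edgeR adjusted p 0.168). The respiratory chain and ATP synthase were also taken by symbol, as 86 genes. These include some assembly factors and Cox4nb, which is neither a subunit nor an assembly factor. Of the 86, 78 lay higher, with a median of 0.18. In 10 they lay higher without overlap (8.8% over all genes), and none was called (0.445% over all genes). Cox6a2, an isoform of a cytochrome c oxidase subunit, had the smallest p, with 5.05, 1.56 and 2.57 CPM in WT and 10.7, 12.7 and 26.7 CPM in XBP1-KO (edgeR adjusted p 0.0877). The medians of these 2 families, 0.22 and 0.18, and that of the mitoribosome, 0.17, lay close together, and differences between them were not tested. Tested genes of up to 1000 nt outside the members, whatever their function, also had a median of 0.18. The part of length in these families was not tested.

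Of the markers of other cells, calls were made only in the T and NK cell list. Over all genes, 56.1% lay higher in XBP1-KO and 0.445% were called in either direction. All 15 tested T and NK cell genes lay higher in XBP1-KO, and 5 of them were called (Cd3e, Lck, Nkg7, Ncr1 and Xcl1). The sum of the 15, led by Ccl5 and Klrb1c, ran from 729 to 1166 CPM in WT and from 1116 to 1654 CPM in XBP1-KO. Of 8 B cell genes, led by Cd79b and Ms4a1, 7 lay higher, with sums from 182 to 355 CPM in WT and from 371 to 529 CPM in XBP1-KO. All 9 neutrophil genes, led by Retnlg and S100a8, lay higher, with sums from 95.8 to 315 CPM in WT and from 302 to 571 CPM in XBP1-KO. Among them Elane, Mpo, Camp, Ltf and Ngp overlapped between the genotypes and were lowest in WT b and XBP1-KO b. Ngp had 70.1, 0.354 and 11.8 CPM in WT and 86.6, 0.641 and 121 CPM in XBP1-KO. Of 15 macrophage and monocyte genes, led by Lyz2 and C1qb, 9 lay higher, and of 14 dendritic cell genes 3 did. Of 10 genes of ID8 tumour cells, led by Krt19 and Krt18, 6 lay higher, and of 5 genes of fibroblasts and mesothelium, led by Dcn and Pdgfra, 2 did. Of the listed markers with a row in the count table, tested or not, none was at 0 in all libraries. WT b was the lowest library for the sums of the T and NK, B cell, neutrophil, and macrophage and monocyte lists. Ccl5 made up most of the T and NK sum. It had 990, 555 and 896 CPM in WT and 1331, 706 and 985 CPM in XBP1-KO. Of the called genes of this list, Cd3e, Lck, Nkg7 and Ncr1 were highest among the WT libraries in WT b, and Xcl1 in WT a. WT b was the highest for the sum of the cell division genes, with 1524 CPM against 1047 to 1203 CPM in the others. It was also the highest for the dendritic cell genes Xcr1, Irf8 and Clec9a, chosen after their values were seen. The sum of all 14 dendritic cell genes, led by Cd74 and H2-Aa, was instead lowest among the WT libraries in WT b. This sum was 75385 CPM there, against 112937 and 122516 CPM in WT a and c. Xcr1, a chemokine receptor of conventional dendritic cells, had 69.4, 171 and 66.8 CPM in WT and 21.6, 115 and 62.1 CPM in XBP1-KO. Among the members WT b was the lowest library of all in both subunit sums. XBP1-KO a was the highest for the T and NK sum, led by Ccl5, as for the members. The 5 called T and NK genes were instead each highest in XBP1-KO b. The part of these cells in the members' levels was not tested.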

How the data were processed

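Sorted tumour-associated dendritic cells of 3 WT and 3 XBP1-KO samples were sequenced. The deposited table gives whole-number counts per gene symbol, not normalized. RSEM, edgeR and the build mm9 were used per the submitters' processing notes, without versions or roles. Not given in the sources used here are the aligner, annotation, strand setting and sort gate. A second deposited table gives CPM, which equalled each count over its library's total (largest difference 5.09e-11), for the 13946 genes with CPM above 1 in at least 2 libraries. Column names carry the genotype and no replicate number, so libraries are called a, b and c in column order, and a letter pairs no samples. All columns were used (0 left out).

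The test of the counts was that of edgeR 4.0.16 under R 4.3.3 (filterByExpr, TMM, robust glmQLFit, two-sided quasi-likelihood F test) over the 15958 genes kept, with Benjamini-Hochberg adjustment over all of them. Standard errors are the fold change over the square root of F. The common biological coefficient of variation was 0.25, so that spread between libraries, more than counting, sets the precision except for members of few counts. The scripts were checked on simulated counts. DESeq2 1.42.0, limma-voom (limma 3.58.1), other scalings and filters, estimation without robustness, limma on the deposited CPM and leaving out libraries were alternatives. Transcript lengths are medians of the basic protein-coding transcripts of GENCODE M21 (GRCm38), since the RefSeq table planned for this gives gene spans. Of tested genes 86.4% had a length. Another build than that of the counts was used only for lengths, overlaps and promoters.

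The members and lists were chosen with earlier results of these data known. Mrps28 and Mrpl55 were moved to the classes with bacterial counterparts after values were seen. Values per library are given for Mrpl12, Mrps18b, the S18 homologues, the 5 smallest p per subunit and direction, the 3 highest and 3 lowest per length in each subunit, some members without overlap, members with ambiguous reads, and the gene of smallest p or the called genes of each list.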

Additional observations from a re-analysis of the deposited data

How the results depend on the processing

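No member was called under any alternative. No paired analysis was possible because the columns of the count table carry no replicate number. The number of genes called over the whole table, 71, was 463 with DESeq2, 47 with limma-voom, 25 with library size alone, 252 with no filter on low counts, 45 without robust estimation, 25 and 13 with limma on the deposited CPM as log2(value + 1) and log2(value + 0.1), and between 5 and 154 with 1 library left out. The members' medians kept their direction in both subunits under every alternative run. With 1 library left out the large-subunit median lay between 0.09 and 0.22 and the small-subunit median between 0.06 and 0.19, each lowest without WT b, and between 16 and 25 small-subunit genes lay higher, fewest without WT b. Single uncalled members changed sign around 0, and the cause was not tested beyond the change of scale or library that each alternative makes. Mrps25, Mrps27 and Mrps5 went to 0.0137, 0.0460 and 0.00763 with upper quartile scaling, to 0.0466, 0.0758 and 0.0287 by library size alone, to 0.0449, 0.0703 and 0.0243 with the deposited CPM as log2(value + 1), and to 0.0455, 0.0719 and 0.0254 as log2(value + 0.1). Mrps27 went to 0.00386 with a filter at a CPM of 1, and Mrpl20 to -0.00426 without WT b and XBP1-KO b. With 1 library left out Mrps25 ranged from -0.153 to 0.0493, Mrps27 from -0.114 to 0.0436, Mrpl36 from -0.00723 to 0.231, Mrps21 from -0.00965 to 0.298, Mrps33 from -0.00681 to 0.242, Mrps35 from -0.0275 to 0.503, Mrpl3 from -0.000115 to 0.148 and Mrpl33 from -0.261 to 1.15. Mrpl38 and Mrpl33 had between 3 and 56 counts per library, and how far depth limits them was not tested.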

Other observations

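The genes outside the members whose levels followed the mean of the members most closely over the 6 libraries, among 9642 genes with a mean of at least 5 CPM, were Ndufa12, a subunit of respiratory complex I, with a Pearson correlation of 0.996, Ccdc124 with 0.994, Aprt, adenine phosphoribosyltransferase of purine salvage, with 0.993, 2010107E04Rik with 0.991 and 4930412F15Rik with 0.991. The 6 libraries share genotype, depth and scaling across all genes, so these values are a description of these libraries. Of the 74 members, 73 had a positive correlation with their own mean, with a median of 0.771.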
